A study of Mus musculus with 6 samples.

Results

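The Wnt pathway was followed in cultures labelled as brown adipocytes through 44 genes, of 13283 genes listed for the 6 libraries. The members are the genes whose symbol names a Wnt ligand, a Frizzled or other Wnt receptor, an antagonist or R-spondin, or a core part of the route from the receptor to the TCF/LEF factors. All 6 cultures were of an immortalized BAT cell line, derived from brown preadipocytes of the mouse and expressing Cas9. Of these, 3 held MICT1 KO pools, transduced with sgRNA against MICT1, a microprotein of brown adipose tissue, and sorted for GFP, and 3 held control cells with scrambled sgRNA (Scr), given as WT in the labels. Both groups were differentiated with insulin, T3 and rosiglitazone, with isobutyl-methylxanthine, dexamethasone and indomethacin during induction, and both received 10 µM forskolin, an activator of adenylyl cyclase, for 6 h on day 6. The pools are not clones, and the labels do not say which of the sgRNAs a library carries. MICT1 itself was not analysed here. The replicates are cultures of the same line, so p-values measure the spread between these cultures.

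Wnt proteins are secreted ligands that carry a lipid added by Porcn and leave the cell on the carrier Wls. They bind Frizzled receptors together with the co-receptors Lrp5 and Lrp6, and through Dishevelled they halt the complex of Axin, Apc and Gsk3 that marks β-catenin for degradation. β-catenin then acts in the nucleus with the TCF/LEF factors. In preadipocytes this route is known to hold back adipogenesis, and a separate branch through Ror and Ryk receptors does not need β-catenin.

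The libraries held between 15445878 and 17925571 reads as the values show them. Markers of adipocytes moved with the groups, and the brown marker Ucp1 was low in both. Of 10 tested brown adipocyte markers 9 were lower in MICT1 KO and 8 of them at least 2-fold, and Cox7a1 was not called. Ppargc1a was under the filter, and Cidea, Elovl3, Dio2, Prdm16 and Cox8b were not analysed here. The 11 markers in the table summed to between 7243 and 8708 CPM in Scr and between 922 and 1314 CPM in MICT1 KO libraries, CPM being the value scaled to an equal total in each library. Of the knockout sum most came from Lpl and Fabp4, genes of adipocytes in general, at mean normalized values of 10184 and 5461. Ucp1, the uncoupling protein that defines brown adipocytes, had values of 20.8, 24.1 and 30.5 for Scr and 1.91, 1.05 and 9.33 for MICT1 KO (log2 fold change -2.71). Adipoq, an adipocyte hormone, had values of 733, 468 and 672 for Scr and 7.63, 3.16 and 5.18 for MICT1 KO (log2 fold change -6.66). Pparg, the main transcription factor of adipogenesis, fell with a log2 fold change of -2.31. Of 6 tested preadipocyte and fibroblast markers 3 were higher, Ly6a (1.39), Col1a1 (0.77) and Pdgfrb (0.48), and 2 were lower, Dlk1 (-3.47) and Pdgfra (-0.19, lost without KO replicate 1 with adjusted p = 0.169 from limma-trend). The 9 markers in the table summed to between 2227 and 2594 CPM in Scr and between 3062 and 3257 CPM in MICT1 KO libraries. The rise of this sum came mainly from Col1a1, at mean normalized values of 17955 for Scr and 30595 for MICT1 KO. Col3a1 (16430 for Scr and 15855 for MICT1 KO) was not called, and Cd34, Mfap5 and Pi16 were under the filter. Of 10 macrophage markers 4 were in the table. They summed to between 16.6 and 23.1 CPM in Scr and between 31.8 and 39.2 CPM in MICT1 KO libraries. Cd14 was higher (1.24), while Csf1r, Mrc1 and Cd68 were not called. Of 8 endothelial markers only Cdh5 was in the table, at between 0.368 and 0.725 CPM in Scr and between 1.59 and 2.03 CPM in MICT1 KO libraries, and of 9 muscle markers 2 were, at between 3.79 and 4.79 CPM in Scr and between 3.37 and 5.74 CPM in MICT1 KO libraries, neither called. The part of these markers in the Wnt results was not tested, and in bulk samples fewer cells of a type and less RNA per cell cannot be told apart.

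Of the 5 Wnt ligands tested 4 were higher in MICT1 KO cells, while the co-receptors Lrp5 and Lrp6 and 3 of 4 TCF/LEF factors were lower. Of the 44 members, 38 passed the filter on low values, which asked for a normalized value of 10 or more in 3 or more libraries. Among these, 10 were higher and 19 were lower at an adjusted p under 0.05 (limma-trend, Benjamini-Hochberg over all 12507 genes tested), and 9 were not called. The calls made up 76.3% of the members tested, against 56.9% of all genes tested. Higher calls were 26.3% of the members and 28.5% of all genes, and lower calls were 50% of the members and 28.3% of all genes. At least 2-fold higher were 4 members, against 7.99% of all genes, and at least 2-fold lower were 3, against 5.76% of all genes. The log2 fold changes had a median of -0.20 over the members tested and -0.0053 over all genes tested. The values of the groups did not overlap in 32 of the 38 members (84.2%), against 62.0% of all genes. Wnt9a, Wnt5b, Sfrp1, Dkk2 and Dkk3 passed the filter with fewer than 3 Scr values of 10 or more, that is, with the help of the group in which their mean was higher. Without the filter, 10 of all 44 members were higher and 19 were lower. The table lists only genes above 0 in every library, so a gene lost altogether in 1 group would not be seen. These shares describe the members and were not tested as a set.

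**Figure D1:**
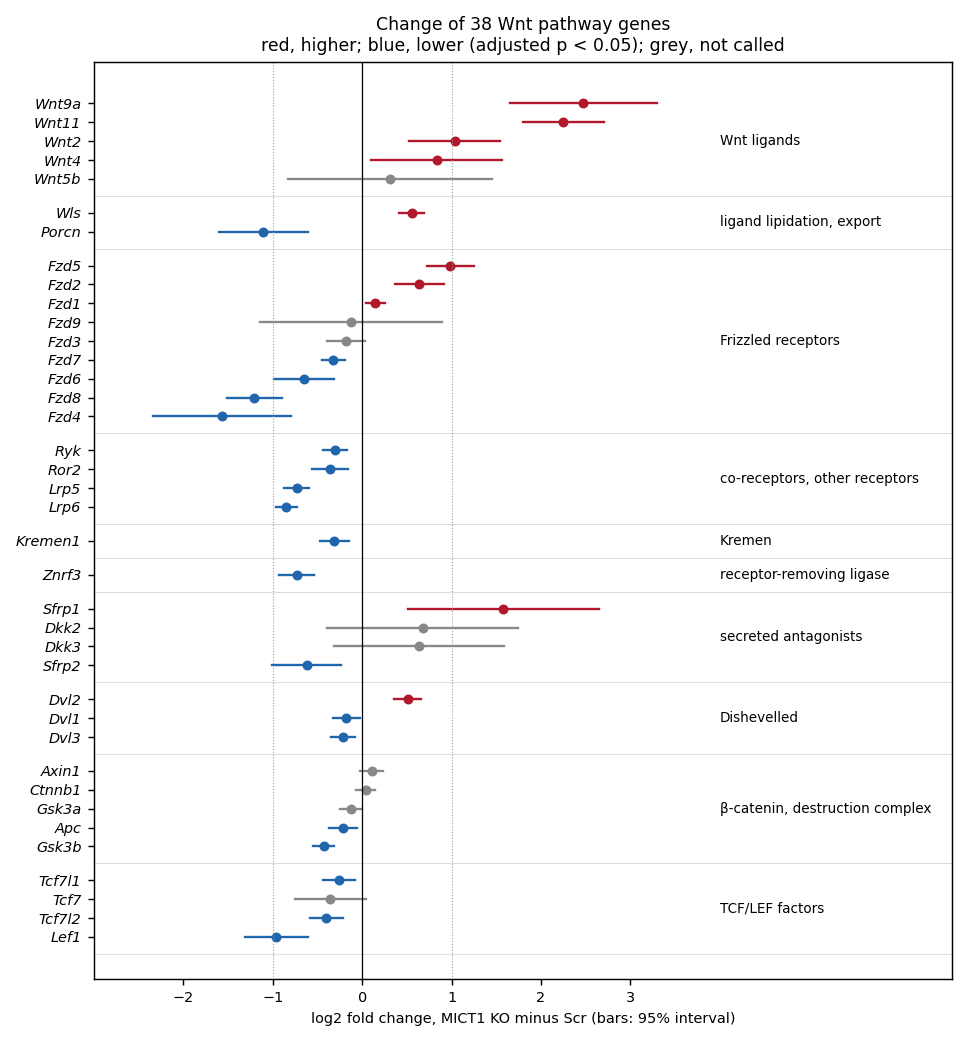
Log2 fold change (MICT1 KO minus Scr, on log2(value + 1)) of the 38 members tested, grouped by role, with 95% intervals from limma-trend and n = 3 per group. Red and blue mark genes higher or lower at an adjusted p under 0.05. The 4 ligands in red lie to the right of 0, from 0.83 to 2.48, and the 4 co-receptors and other receptors to its left, from -0.85 to -0.30.

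Among the ligands, Wnt11, Wnt9a, Wnt2 and Wnt4 were higher in MICT1 KO cells and none was lower. The 250 bases before a listed start of transcription are shown for Wnt11 and Wnt9a, the ligands with the largest rises. They are also shown for Wnt5b, which was not called. Wnt11 and Wnt5b are the members whose promoter windows hold the core sequence of a TCF/LEF site, CTTTGAT or its reverse complement. The sequences are from RefSeq on GRCm38.p6, written 5′ to 3′ on the strand of the gene, with the match in capitals.
Wnt11, chr7:98834862-98835111, plus strand: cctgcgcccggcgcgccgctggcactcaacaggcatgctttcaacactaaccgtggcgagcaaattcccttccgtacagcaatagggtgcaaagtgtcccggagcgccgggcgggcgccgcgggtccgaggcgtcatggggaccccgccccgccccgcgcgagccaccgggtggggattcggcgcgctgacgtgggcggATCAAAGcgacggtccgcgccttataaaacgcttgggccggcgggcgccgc
Wnt5b, chr6:119449387-119449636, minus strand: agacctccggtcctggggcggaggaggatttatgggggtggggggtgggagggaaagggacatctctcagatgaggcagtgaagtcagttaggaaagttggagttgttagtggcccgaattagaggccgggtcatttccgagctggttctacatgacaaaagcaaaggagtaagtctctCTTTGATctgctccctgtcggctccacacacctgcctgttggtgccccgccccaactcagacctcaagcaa
Wnt9a, chr11:59306680-59306929, plus strand: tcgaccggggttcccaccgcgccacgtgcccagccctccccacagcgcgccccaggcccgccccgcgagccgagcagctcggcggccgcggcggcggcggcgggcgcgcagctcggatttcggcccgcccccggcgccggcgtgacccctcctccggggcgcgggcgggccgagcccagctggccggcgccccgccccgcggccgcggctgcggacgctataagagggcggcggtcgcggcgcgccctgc

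The match in the Wnt11 window begins 51 bases before the start listed for that window. That in Wnt5b begins 71 bases before the most downstream of its 3 listed starts. The gene positions given below begin at 98835084 for Wnt11 and 59306849 for Wnt9a, inside the printed windows. The starts used for these windows thus differ from the gene positions, and the last bases shown lie within the genes as positioned. Wnt11 has 2 listed starts, and the other window holds no match. Both strands were searched in windows of 250 bases before and 50 after the start, which were found for 29 members. Of these 29, 2 (6.9%) held CTTTGAT in some window, against 4.29% of the 27025 mouse genes with a RefSeq promoter window. The full cAMP response element, TGACGTCA, was found in 1 member, Dvl1, against 2.03% of those genes. A match is a description of the sequence and does not show binding.

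Wnt11 is a ligand known mainly for signaling apart from β-catenin (chromosome 7, from 98835084 to 98854747, GRCm38, gene positions from RefSeq). It had values of 55.4, 34.3 and 42.7 (Scr replicates 1 to 3) against 247, 199 and 188 (MICT1 KO replicates 1 to 3). These values are normalized reads as the authors deposited them, on a scale where 1 is close to 1 read, and SE is the standard error. The groups were far apart, and the knockout mean was 4.79-fold the Scr mean (log2 fold change 2.25, SE 0.22, adjusted p = 1.66e-08 from limma-trend). Wnt9a (chromosome 11, from 59306849 to 59333552) had values of 24.7, 6.49 and 16.3 (Scr replicates 1 to 3) against 78.2, 64.3 and 109.9 (MICT1 KO replicates 1 to 3). The lowest MICT1 KO value was above the highest Scr value (log2 fold change 2.48, SE 0.40, adjusted p = 1.97e-05 from limma-trend). Wnt2 (chromosome 6, from 17985474 to 18032772), which can signal through β-catenin, had values of 50.4, 64.0 and 35.6 for Scr and 97.2, 105 and 99.5 for MICT1 KO, again without overlap (log2 fold change 1.03, SE 0.25, adjusted p = 0.00121). With a pseudocount of 5 the log2 fold change of Wnt2 was 0.97, so it was then less than 2-fold higher. Over the fits that left out a library it ranged from 0.81 to 1.23.

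Wnt4 lay near the threshold. Its values were 27.7, 17.6 and 18.3 for Scr and 35.3, 43.2 and 35.2 for MICT1 KO, and its adjusted p was 0.048 (log2 fold change 0.83, SE 0.35, limma-trend). The call was lost with limma-voom (adjusted p = 0.0535), without Scr replicate 2 (adjusted p = 0.126) or 3 (adjusted p = 0.113), and without KO replicate 1 (adjusted p = 0.0734), 2 (adjusted p = 0.14) or 3 (adjusted p = 0.0717). Wnt5b was not called (log2 fold change 0.31, 95% interval -0.83 to 1.45), at 11.9, 22.2 and 5.09 for Scr and 14.3, 10.5 and 18.7 for MICT1 KO. Wnt5a and Wnt2b were under the filter. Wnt5a, the usual ligand of Ror2, had values of 0.989, 4.63 and 9.16 for Scr and 0.953, 10.5 and 2.07 for MICT1 KO, and Wnt2b of 5.93, 14.8 and 2.04 for Scr and 9.53, 10.5 and 3.11 for MICT1 KO, with overlap in both. In the fit without a filter, Wnt5a had a log2 fold change of -0.24 (SE 0.81, adjusted p = 0.827) and Wnt2b of 0.19 (SE 0.67, adjusted p = 0.828, both limma-trend).

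Per exon length, the 7 ligands together came to 3.46, 3.33 and 2.38 RPKM for Scr and 8.67, 8.13 and 8.55 RPKM for MICT1 KO. Each MICT1 KO library was above every Scr library. RPKM is the value per kilobase of exon, scaled to the library total, so it can be compared between genes. Wnt2 held the largest share of this sum in Scr and Wnt11 in MICT1 KO. The share of Wnt2 was 44% ± 6.34 (SD, n = 3) for Scr against 32.4% ± 2.6 (SD, n = 3) for the knockout, and that of Wnt11 was 21.8% ± 6.06 (SD, n = 3) for Scr against 37% ± 4.65 (SD, n = 3) for the knockout. The ligands were low beside the leading receptor, with Wnt11 at 0.654 RPKM in Scr and 3.13 RPKM in MICT1 KO and the most abundant Frizzled gene, Fzd1, at 86.0 RPKM in Scr and 95.6 RPKM in MICT1 KO.

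**Figure D2:**
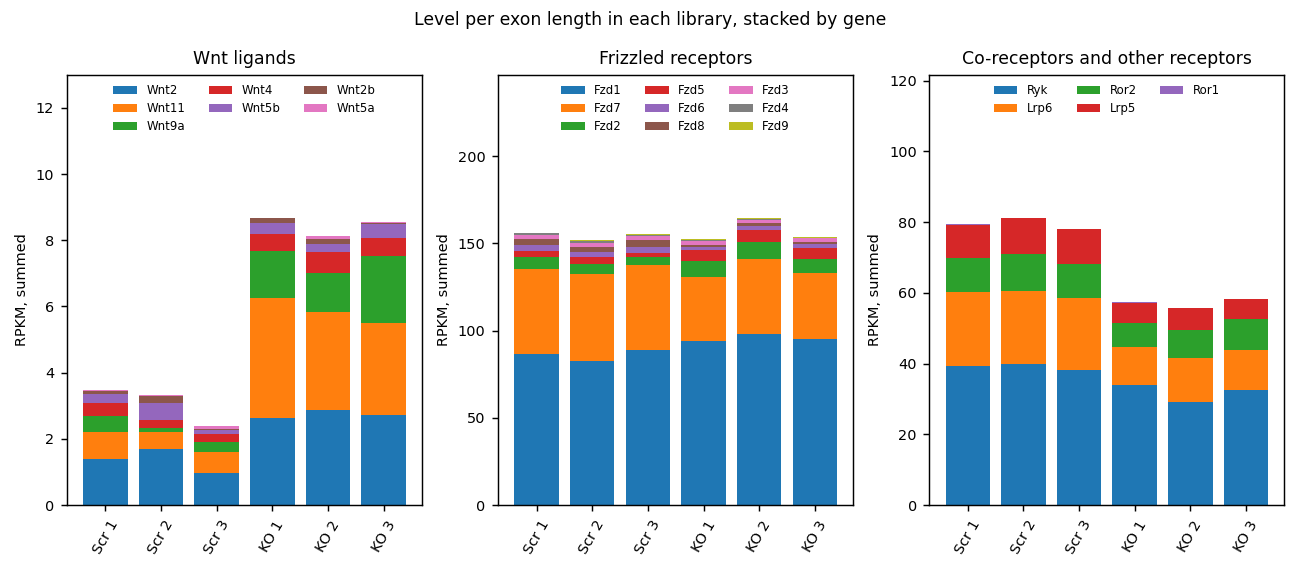
RPKM in each of the 6 libraries, stacked by gene, for the 7 ligands, the 9 Frizzled receptors and the 5 co-receptors and other receptors. The ligand sum is 3.06 ± 0.593 in Scr and 8.45 ± 0.284 in MICT1 KO (mean and SD, n = 3), whereas the Frizzled sums of the groups overlap.

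The genes that prepare and export Wnt proteins went in opposite directions. Wls, the carrier that takes Wnt proteins to the cell surface, rose, with values of 1674, 1579.6 and 1509 for Scr and 2262, 2229 and 2494 for MICT1 KO (log2 fold change 0.55, SE 0.065, adjusted p = 3.42e-07). Porcn, the acyltransferase that adds the lipid (chromosome X, from 8193846 to 8206548), fell, with values of 133, 78.8 and 119 for Scr and 52.4, 45.3 and 50.8 for MICT1 KO (log2 fold change -1.11, SE 0.24, adjusted p = 0.000534). Neither gene's groups overlapped. Over the fits that left out a library, the log2 fold change of Porcn ranged from -1.33 to -0.96, so it was not 2-fold lower in all.

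The Frizzled receptors changed in both directions while their sum was much alike in the groups. Fzd5, Fzd2 and Fzd1 were higher, Fzd4, Fzd8, Fzd6 and Fzd7 were lower, and Fzd3 and Fzd9 were not called. Fzd8 had values of 311, 309.6 and 345 for Scr and 115, 145 and 159 for MICT1 KO, with every MICT1 KO library below every Scr library (log2 fold change -1.21, SE 0.15, adjusted p = 5.49e-07). Fzd4, which binds Norrin as well as Wnt proteins (chromosome 7, from 89404366 to 89410110), had values of 113, 89.0 and 83.4 for Scr and 14.3, 64.3 and 32.1 for MICT1 KO (log2 fold change -1.57, SE 0.37, adjusted p = 0.00114). The MICT1 KO values of Fzd4 were spread widely, and without KO replicate 1 its log2 fold change was -1.03, adjusted p = 0.00494 (limma-trend). Fzd5 had values of 414, 428 and 278 for Scr and 713, 765 and 706 for MICT1 KO (log2 fold change 0.99, SE 0.13, adjusted p = 1.10e-06), with all MICT1 KO libraries above all Scr libraries.

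The Frizzled genes with the highest levels, Fzd1 and Fzd7, changed by less than 2-fold. Fzd1 had values of 5852, 5776 and 6103 for Scr and 6476, 6689 and 6487 for MICT1 KO (log2 fold change 0.15, SE 0.051, adjusted p = 0.0181), and the call was lost without Scr replicate 2 (adjusted p = 0.0808) or KO replicate 2 (adjusted p = 0.0567). Fzd7 was lower, at 3634 ± 96.0 (SD, n = 3) for Scr and 2907 ± 251 (SD, n = 3) for MICT1 KO, with a log2 fold change of -0.33 (adjusted p = 0.00015). Fzd2 (log2 fold change 0.64, adjusted p = 0.000336) and Fzd6 (-0.65, adjusted p = 0.00182) changed by less than 2-fold. Fzd3 was at -0.18 (95% interval -0.40 to 0.031) and passed the threshold only without KO replicate 1 (adjusted p = 0.0397). Fzd9, at 19.8, 20.4 and 13.2 for Scr and 33.4, 12.6 and 9.33 for MICT1 KO, had a log2 fold change of -0.13 (95% interval -1.15 to 0.89).

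Summed per exon length, the 9 Frizzled genes came to 156, 152 and 155 RPKM for Scr and 153, 164 and 153 RPKM for MICT1 KO, with overlap between the groups. The share of Fzd1 in this sum was 55.7% ± 1.3 (SD, n = 3) for Scr against 61% ± 1.29 (SD, n = 3) for the knockout, and that of Fzd7 was 31.7% ± 0.848 (SD, n = 3) for Scr against 25% ± 1.17 (SD, n = 3) for the knockout. Fzd5 held 2.14% ± 0.487 (SD, n = 3) for Scr against 4.11% ± 0.0198 (SD, n = 3) for the knockout.

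All 4 of the co-receptors and other receptors that were tested were lower, against 28.3% of all genes tested. Lrp6, a co-receptor of the β-catenin route (chromosome 6, from 134446476 to 134566913), had values of 4614, 4644 and 4561 (Scr replicates 1 to 3) against 2401, 2768 and 2526 (MICT1 KO replicates 1 to 3). The Scr values lay close together and all MICT1 KO values were below them (log2 fold change -0.85, SE 0.059, adjusted p = 1.09e-10 from limma-trend). Its relative Lrp5 had values of 1464, 1632 and 1572 for Scr and 920.0, 970.4 and 912 for MICT1 KO (log2 fold change -0.73, SE 0.069, adjusted p = 1.30e-08), again without overlap. Ryk, the most abundant of the class per exon length, had values of 2869, 3014 and 2834 for Scr and 2524, 2159 and 2390.3 for MICT1 KO (log2 fold change -0.30, SE 0.063, adjusted p = 0.000355). Ror2, a receptor tyrosine kinase that responds to Wnt5a, was 690.2 ± 49.2 (SD, n = 3) for Scr and 538 ± 60.7 (SD, n = 3) for MICT1 KO (log2 fold change -0.36, adjusted p = 0.00313). Ror1 was under the filter, with values of 18.8, 1.85 and 5.09 for Scr and 18.1, 9.48 and 1.04 for MICT1 KO. The sum of the class was 79.4, 81.1 and 78.0 RPKM for Scr and 57.3, 55.7 and 58.3 RPKM for MICT1 KO.

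Znrf3 and Kremen1, which act on the receptors at the cell surface, were also lower. Znrf3, a ubiquitin ligase that removes Frizzled and Lrp6 from the membrane and is itself a known target of β-catenin, had values of 745, 694 and 784 for Scr and 409, 446 and 483 for MICT1 KO (log2 fold change -0.73, SE 0.093, adjusted p = 9.48e-07). Its relative Rnf43 was under the filter, at 6.92, 4.63 and 7.12 for Scr and 3.81, 1.05 and 2.07 for MICT1 KO, with the MICT1 KO values below the Scr values. Kremen1, a receptor for Dkk proteins that takes Lrp6 from the surface, was 1050.4 ± 77.0 (SD, n = 3) for Scr and 846 ± 47.4 (SD, n = 3) for MICT1 KO (log2 fold change -0.31, SE 0.078, adjusted p = 0.00201). Rspo2, whose family spares Frizzled receptors from Znrf3 and Rnf43, had values of 0.989, 5.56 and 5.09 for Scr and 3.81, 1.05 and 7.26 for MICT1 KO, under the filter.

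The secreted antagonists did not move together. Sfrp2, a decoy that binds Wnt proteins and the most abundant of the class, had values of 201, 153 and 140.4 for Scr and 91.5, 107 and 119 for MICT1 KO (log2 fold change -0.62, SE 0.19, adjusted p = 0.00715). The call was lost without Scr replicate 1, where the log2 fold change was -0.47, adjusted p = 0.0612 (limma-trend). Sfrp1, another decoy (chromosome 8, from 23411383 to 23449632), rose from very low values, at 3.96, 8.34 and 11.2 for Scr and 16.2, 31.6 and 25.9 for MICT1 KO (log2 fold change 1.58, SE 0.51, adjusted p = 0.0123). That call was lost without Scr replicate 1 (1.21, adjusted p = 0.0562) or KO replicate 2 (1.38, adjusted p = 0.0649). Dkk2 and Dkk3 overlapped between the groups, with log2 fold changes of 0.68 (95% interval -0.39 to 1.75) and 0.63 (95% interval -0.32 to 1.58). The sum of the 4 antagonists was 6.53, 4.68 and 4.72 RPKM for Scr and 3.36, 4.37 and 4.68 RPKM for MICT1 KO, with the ranges of the groups just overlapping.

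**Figure D3:**
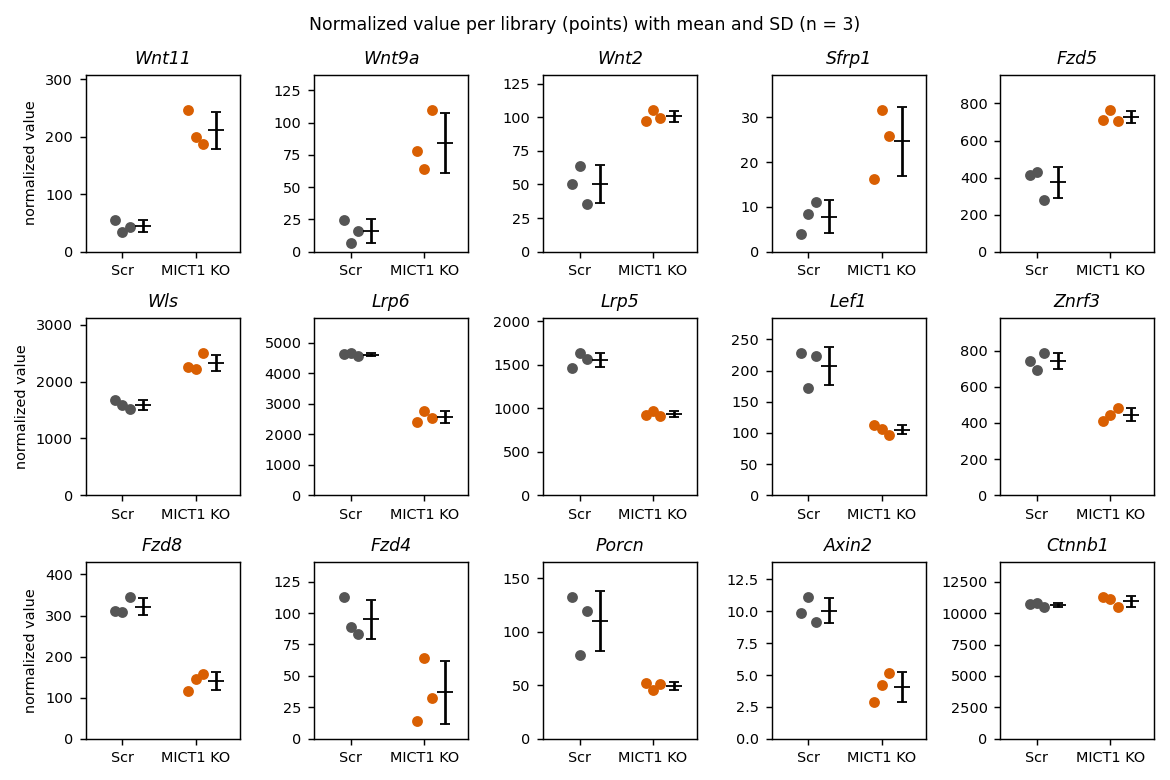
Normalized value of 15 members in each library (points), with the mean and SD of each group (n = 3), on linear axes that start at 0. All but Axin2 and Ctnnb1 are called members, so the separation seen here follows from the choice of panels. The groups are separate in 14 panels and overlap for Ctnnb1, while the values of Axin2 do not exceed 11.1. Among all genes tested the groups did not overlap in 62.0%.

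Inside the cell, β-catenin mRNA was not called. Ctnnb1 (chromosome 9, from 120933400 to 120960507) had values of 10743, 10789 and 10482 for Scr and 11288, 11091 and 10479.6 for MICT1 KO, which overlapped. Its log2 fold change was 0.037 with a 95% interval of -0.07 to 0.14 (adjusted p = 0.562, limma-trend), at levels of 126 RPKM in Scr and 129 RPKM in MICT1 KO. The level and activity of the protein were not measured. Gsk3b, a kinase that marks β-catenin for degradation, was lower at 3073, 3204 and 3054 for Scr and 2316, 2271 and 2335 for MICT1 KO (log2 fold change -0.43, SE 0.056, adjusted p = 1.21e-06). Gsk3a (-0.12, adjusted p = 0.09) and Axin1 (0.10, adjusted p = 0.155) were not called. Apc had a log2 fold change of -0.21 (adjusted p = 0.0176), and its call was lost without Scr replicate 1 (-0.19, adjusted p = 0.0647) or KO replicate 1 (-0.13, adjusted p = 0.118).

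Axin2, a scaffold of the same complex and a widely used readout of β-catenin activity, was near the limit of detection. Its values were 9.89, 11.1 and 9.16 (Scr replicates 1 to 3) against 2.86, 4.21 and 5.18 (MICT1 KO replicates 1 to 3). All MICT1 KO values were below all Scr values, and all were low. Axin2 was under the filter, and in the fit without a filter it had a log2 fold change of -1.14 (SE 0.57, adjusted p = 0.0952 from limma-trend), which does not pass. In that fit Rnf43 was at -1.19 (adjusted p = 0.151).

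The Dishevelled genes, which carry the signal from Frizzled, shifted against each other. Dvl2 rose, with values of 855, 895 and 802 for Scr and 1232, 1182 and 1213 for MICT1 KO (log2 fold change 0.51, SE 0.072, adjusted p = 4.32e-06), while Dvl3 fell (-0.21, adjusted p = 0.00755). Dvl1, the most abundant per exon length, had values of 1696, 1725 and 1592 for Scr and 1335, 1552 and 1559 for MICT1 KO, a log2 fold change of -0.18 and an adjusted p of 0.0394 (limma-trend). Its call was lost with scaling to library size (adjusted p = 0.0513), without Scr replicate 1 (adjusted p = 0.103) or 2 (adjusted p = 0.139), and without KO replicate 1 (-0.10, adjusted p = 0.217). The summed level of the 3 genes was 44.6, 43.2 and 42.5 RPKM for Scr and 40.8, 43.6 and 43.6 RPKM for MICT1 KO, with overlap. Dvl2 made up 19% ± 0.763 (SD, n = 3) for Scr against 27.6% ± 1.42 (SD, n = 3) for the knockout.

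Of the TCF/LEF factors, which bind DNA with β-catenin, Lef1, Tcf7l2 and Tcf7l1 were lower and Tcf7 was not called. Lef1, itself a known target of the pathway (chromosome 3, from 131110297 to 131224357), had values of 227, 172 and 223 (Scr replicates 1 to 3) against 112, 106 and 97.4 (MICT1 KO replicates 1 to 3). The MICT1 KO values were close together and well below the Scr values (log2 fold change -0.96, SE 0.17, adjusted p = 5.52e-05 from limma-trend). Tcf7l2 had values of 658, 734 and 689 for Scr and 552, 523 and 502 for MICT1 KO (log2 fold change -0.40, SE 0.087, adjusted p = 0.000561). Tcf7l1, often a repressor and the most abundant of the class, had values of 856, 800.0 and 885 for Scr and 797, 670.1 and 667 for MICT1 KO (log2 fold change -0.26, SE 0.086, adjusted p = 0.016). Its call was lost without Scr replicate 3 (adjusted p = 0.0607), KO replicate 2 (adjusted p = 0.0627) or KO replicate 3 (adjusted p = 0.0734). Tcf7 was 113 ± 7.85 (SD, n = 3) for Scr and 87.5 ± 1.91 (SD, n = 3) for MICT1 KO (95% interval -0.75 to 0.038 for the log2 fold change of -0.36). The sum of the class was 22.4, 20.9 and 22.9 RPKM for Scr and 19.0, 17.0 and 16.7 RPKM for MICT1 KO, lower in each MICT1 KO library than in any Scr library.

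**Figure D4:**
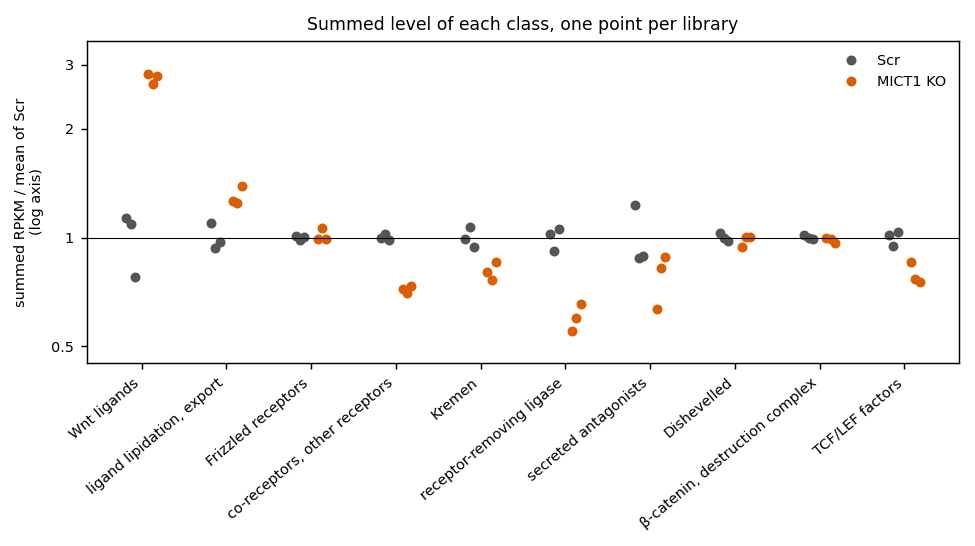
Summed RPKM of each class of members, divided by the mean of the Scr libraries, with 1 point per library on a log axis. The ligand class lies 2.76-fold above Scr in the mean, the co-receptor class is at 0.718 and the TCF/LEF class at 0.795 of it, and the Frizzled, Dishevelled and β-catenin classes lie near 1.

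Other genes of the pathway outside the 44 members were read from lists chosen by role, with earlier results of these data known. Of 131 such genes tested, 50 were higher and 44 were lower (71.8% called, against 56.9% of all genes tested), with a median log2 fold change of 0.033. These are 38.2% higher and 33.6% lower, against 28.5% and 28.3% of all genes. Among 17 genes of ligand export and extracellular control, 5 were higher, led by the glypican Gpc6 (1.01), Tpbg (0.91), which modifies the response to Wnt, and perlecan (Hspg2, 0.73). In that list 7 were lower (70.6% called in all), led by Igfbp4 (-2.55, adjusted p = 2.13e-15), a binding protein of insulin-like growth factors that can also block Wnt receptors, Tmed5 (-0.86) and the retromer subunit Vps26a (-0.56). Numbers in brackets after these genes, here and below, are log2 fold changes of called genes.

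Of 8 further receptors, 5 were higher (62.5%) and 2 lower (25%), with 87.5% called. Among all genes tested 28.5% were higher and 28.3% lower. Reck (2.34) and Adgra2 (0.93), which together bind Wnt7 ligands, and Ptk7 (1.27), a receptor of the planar polarity branch, rose. Tspan12 (-0.85), a partner of Fzd4, and Lgr4 (-0.61), a receptor of R-spondins, fell. Another R-spondin receptor, Lgr6 (0.90), which was named after its values were seen, was higher. Of 30 genes that act on β-catenin in the cytoplasm, 8 were higher (26.7%) and 16 lower (53.3%), with 80% called. Here N-cadherin (Cdh2, 1.84), which binds β-catenin at junctions, Dact1 (1.56), which binds Dishevelled, and Frat2 (1.26), which binds Gsk3, rose most. The phosphatase subunit Ppp2r5a (-0.97), Cxxc5 (-0.90) and Fam53b (-0.85) fell most.

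Among 27 nuclear co-factors, 9 were higher (33.3%) and 11 lower (40.7%), against 28.5% and 28.3% of all genes, with 74.1% called. Bcl9l (-1.31, adjusted p = 2.96e-14) and Pygo1 (-1.04), which link β-catenin to transcription, and Tbl1xr1 (-1.12) fell most. Tle6 (1.71), Tle2 (1.49) and the histone deacetylase Hdac1 (0.86) rose most. Of the other Tle genes, which were named after their values were seen, Tle4 (0.42) and Tle5 (0.46) were higher, and Tle3 (-0.34) and Tle1 (-0.17, lost without Scr replicate 3 with adjusted p = 0.166 from limma-trend) were lower. In the planar polarity and calcium branch 10 of 27 genes were higher and 4 lower, a called share of 51.9% that is below the 56.9% of all genes. The largest falls there were those of the phospholipase Plcb1 (-2.10), the cadherin Celsr3 (-1.19) and the kinase Prkca (-0.35), and the largest rises those of the cadherin Fat4 (1.04), Vangl2 (0.94) and Plcb3 (0.74). The call of Fat4 was lost without KO replicate 2 (0.73, adjusted p = 0.104 from limma-trend).

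Of 25 genes widely used as targets of Wnt and β-catenin, 15 were higher (60% against 28.5% of all genes) and 4 were lower (16% against 28.3%), with a median log2 fold change of 0.79. Ccn2 (3.47, adjusted p = 5.87e-19) and Ccn1 (3.05) rose most, followed by Dact1. Ccn1 and Ccn2 are also known targets of the YAP and SRF factors, which are separate from β-catenin. Met (-0.82), Fosl1 (-0.77) and Vegfa (-0.26) fell most. This list, also chosen with earlier results of these data known, leaves out the members, some of which are targets themselves. Of those named above, Lef1 (-0.96) and Znrf3 (-0.73) were lower. Axin2, under the filter, also had lower values in MICT1 KO but was not called in the fit without a filter. The called targets thus included genes in both directions, and their movement as a class was not tested.

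A further 23 annotated mouse genes whose symbols match the same families were not analysed here. Among them are Wnt10b, Wnt10a, Wnt6, Sfrp5, Sfrp4, Frzb, Wif1 and Dkk1.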

How the data were processed

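RNA-seq of 3 Scr and 3 MICT1 KO libraries was used, each grouped by its title. The authors deposited a normalized signal per gene symbol. The submitters' processing notes name Partek, STAR and DESeq2 with GRCm38/mm10. The counting model, its use of strand and the annotation are not given in the sources used here, so reads of overlapping genes may be shared. The most frequent low value, read as 1 read, was 0.927 to 1.05. Too many values were not whole multiples of it to recover counts.

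Genes whose value reached 10 in 3 libraries or more were tested on log2(value + 1) by limma-trend (limma 3.58.1, R 4.3.3) with Benjamini-Hochberg adjustment. This scale understates changes of low genes. An exact test of 3 against 3 libraries cannot give p below 0.1. RPKM used GENCODE vM21 exon lengths (97.3% of genes). The functions were tested on simulated data. The members and lists were chosen with earlier results of these data known. Values in every library are given for members called at least 2-fold, the highest of each class and Wnt5a, Axin2, Lef1 and Ctnnb1, and for others chosen after their values were seen. Of other lists, the 3 largest rises and falls are named. Alternatives were scaling to library size, pseudocounts of 0.5 and 5, no filter, a maximum of at least 4 CPM, limma-voom, the replicate number as a block, and each library left out in turn.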

Additional observations from a re-analysis of the deposited data

How the results depend on the processing

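Of the 29 members called, 22 kept the call and the direction in every one of the 13 alternatives that tested them, 7 lost the call in at least 1 (Apc, Dvl1, Fzd1, Sfrp1, Sfrp2, Tcf7l1 and Wnt4), and 0 changed sign. With each library left out in turn 7 to 9 members were higher and 16 to 18 lower, 3 to 5 at least 2-fold higher and 2 to 4 at least 2-fold lower. Of the members that were not called, Fzd9 and Wnt5b changed sign in at least 1 fit. Over the fits that left out a library, their log2 fold changes were -0.64 to 0.23 (Fzd9) and -0.19 to 0.77 (Wnt5b). A maximum of at least 4 CPM left 8 members higher and 19 lower. With the replicate number as a block 9 were higher and 19 lower, with Wnt4 no longer called (adjusted p = 0.0594 from limma-trend). Same-numbered libraries showed little shared deviation (correlations of -0.0236 to 0.0637 across genes). With so few libraries this cannot settle whether same-numbered cultures were handled together. Axin2, Rnf43, Ror1, Rspo2, Wnt2b and Wnt5a lay under the filter, and other knockout pools or lines were not sampled.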
